A study of Mus musculus with 18 samples.

Results

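The response of Creld1-deficient naive CD4+ T cells to antibody stimulation was examined by RNA sequencing. It was measured as the difference between 3 libraries of cells cultured for 8 h with 1 µg/ml anti-CD3 and anti-CD28 antibodies and 3 libraries of cells cultured for 8 h without them. These 6 libraries were chosen by their labels from 18, which hold control and Creld1 conditional knockout (cKO) cells, each freshly isolated, cultured unstimulated or cultured stimulated, with 3 libraries in each of 6 groups. All cells came from spleens of inbred C57BL/6J mice and were sorted as naive cells by surface markers that included CD3+, CD4+, CD25- and CD44-. In the cKO mice Creld1, a membrane protein with EGF-like domains, was deleted by Cre recombinase under CD4 regulatory sequences. That Cre acts in T cells generally, from their development in the thymus, so the deletion preceded the culture and the stimulation. The mouse label is the same for all libraries of a group, and p-values therefore measure the spread between libraries, which may be technical. Of 15137 genes, the 10877 (71.9%) whose linear value reached 10 in no fewer than 3 of the 18 libraries entered the test. Values are the authors' normalized log2 values, differences are log2 stimulated minus log2 unstimulated, and depth is unknown.

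Anti-CD3 engages the T cell receptor complex and anti-CD28 the main co-stimulatory receptor. The receptor signals through the kinases Lck and Zap70 and the adaptors LAT and SLP-76 to calcium and NFAT, to the Ras and ERK kinases and to NF-kB. ERK signalling induces the Egr transcription factors and also inhibitors that limit it, such as Dusp, Sprouty and Spred proteins, while CD28 and growth signals raise metabolism and ribosome production ahead of division.

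Creld1 itself read 3.95, 4.33 and 3.82 in the unstimulated and 4.14, 4.62 and 4.37 in the stimulated cKO libraries. The cKO groups overlapped (difference 0.35 ± 0.23 SE, adjusted p = 0.331). Control cells read 4.81, 4.88 and 5.40 unstimulated and 4.41, 5.10 and 4.71 stimulated. Unstimulated cKO libraries all lay below unstimulated control libraries, whereas stimulated cKO replicate 2 lay above control replicate 1. The table gives 1 value per gene, so reads from exons left by the deletion were not told apart. Naive CD4+ T cell markers were present: all 9 deposited naive markers reached the minimum, with a summed linear level of 58680 to 60490 stimulated and 63090 to 64980 unstimulated. For other cell types, 3 of 14 B cell, 3 of 11 myeloid, 5 of 16 cytotoxic and natural killer cell and 1 of 4 red cell and platelet markers did. The mean log2 level of Cd8a, which defines cytotoxic T cells, was 1.52 in both groups, below the minimum. Of the 5 cytotoxic and natural killer cell markers at the minimum, Cd8b1 had a mean of 6.33 in both groups. Klrd1, the highest, had 8.34 unstimulated and 8.04 stimulated. This list summed to 522.5 to 538.6 unstimulated and 467.1 to 527.8 stimulated.

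Stimulation changed 31 genes in cKO cells (0.285% of those tested; adjusted p under 0.05, limma): 30 were higher (0.276%) and 1 was lower (0.00919%). Unadjusted p was under 0.05 for 2511 genes (23.1%), of which 1597 were higher (14.7%) and 914 lower (8.4%). The stimulated libraries all lay above the unstimulated ones for 2597 genes (23.9%) and all below for 1999 (18.4%). A rise of at least 1 log2 was seen for 148 genes (1.36%) and a fall of that size for 7 (0.0644%). The called rises ranged from 0.45 to 2.25 with a median of 0.92, against a median difference of 0.01 over all tested genes. All 31 called genes had libraries that did not overlap, and 14 of them differed by at least 1 log2. They were led by Sema7a, Egr3, Egr1, Hivep3, Ccr4 and Sh3bp2, and the single lower gene was Acot4. Of the 31, 15 belonged to one of the gene lists described here and 16 to none.

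**Figure D1:**
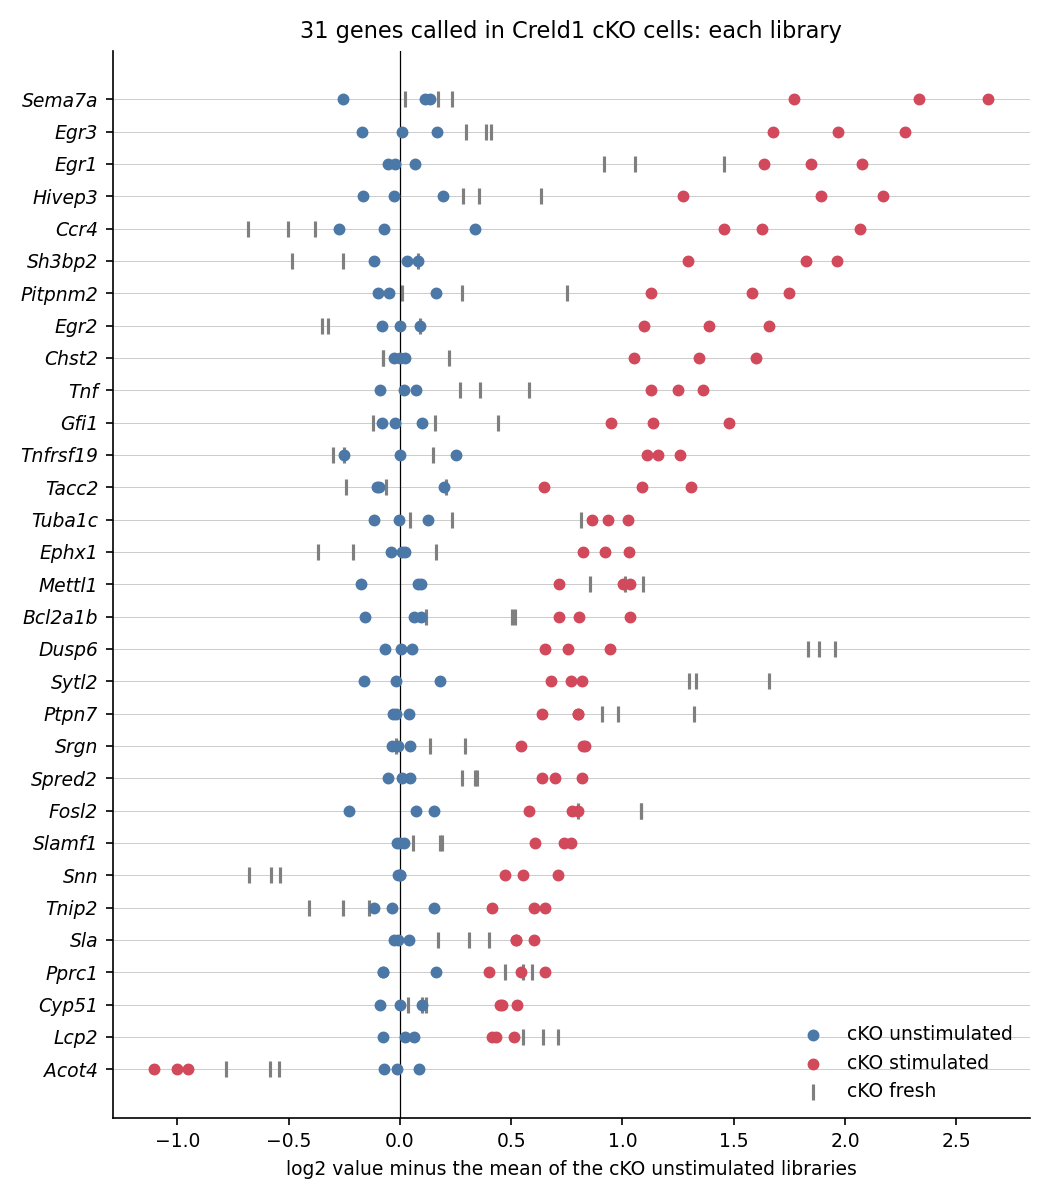
Each of the 31 called genes is a row, and each point is a cKO library's log2 value minus the mean of the unstimulated cKO libraries (blue, unstimulated; red, stimulated; grey bars, fresh). Red and blue points do not overlap in any row, and for 22 of the 30 higher genes the unstimulated mean lies below the fresh mean. The choice of genes by their stimulation difference favours this order, and the share over all tested genes was not counted.

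The number of calls depended on single libraries. Leaving out unstimulated replicate 1, 2 or 3 gave 12, 13 or 11 calls, and leaving out stimulated replicate 1, 2 or 3 gave 34, 13 or 13. Sema7a, Egr3, Egr1, Egr2, Chst2, Tnf, Tnfrsf19, Dusp6, Spred2, Lcp2 and Acot4 (11 genes) were called in all 6 of these fits. In none of them were Bcl2a1b, Sytl2, Ptpn7, Fosl2, Slamf1, Snn or Cyp51 called (7 genes), and the other 13 were called in some. Of these, Hivep3, Sh3bp2, Pitpnm2, Gfi1, Tacc2, Tuba1c, Ephx1, Mettl1, Srgn and Tnip2 were called in only 1 of the 6 fits. Pprc1 was called in 2, Ccr4 in 3 and Sla in 4. Every one of the 31 kept its direction in each.

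**Figure D2:**
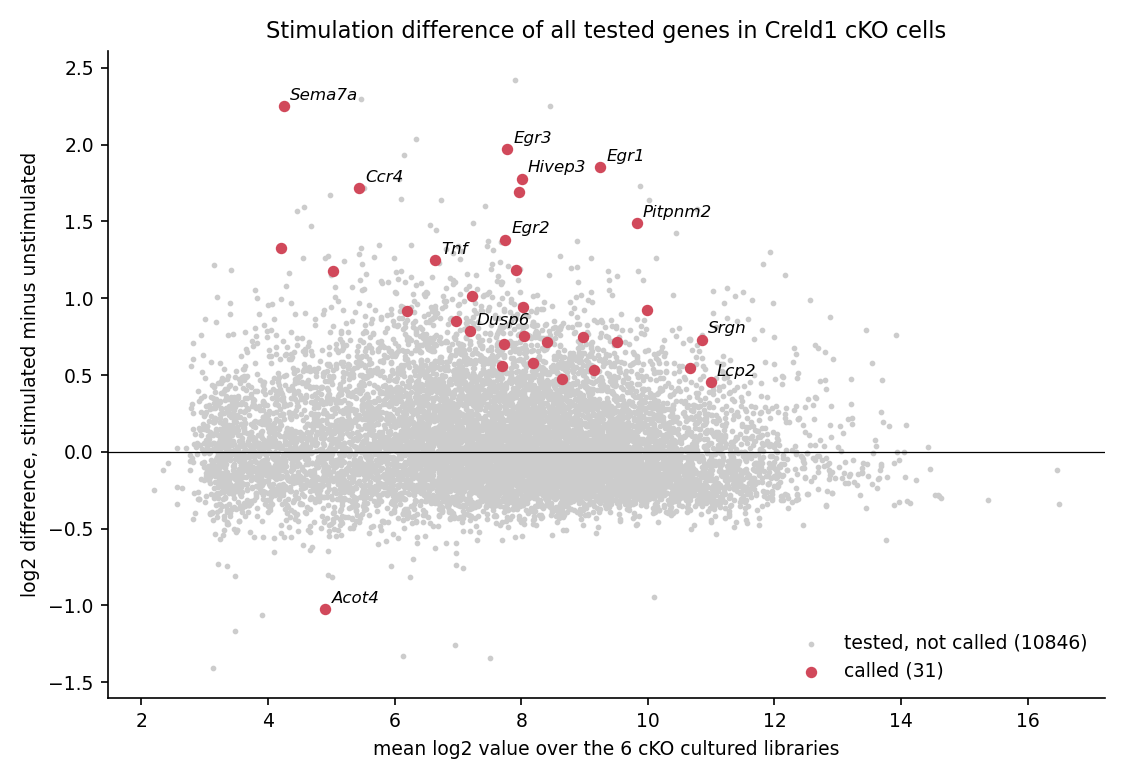
Each point is a tested gene, with its mean log2 level over the cultured cKO libraries on the x axis and its log2 stimulation difference on the y axis. The 31 called genes are red. Most differences lie within 1 log2 of 0, more genes lie above 1 than below -1 (148 and 7), and called genes lie at low, middle and high levels.

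Upstream sequence was read for the called genes from RefSeq (GRCm38.p6), as the 250 bases before the most upstream listed start, which was given for 27 of the 31. GENCODE M21 starts some of these genes further upstream: 17 of the 27 windows hold bases inside the annotated gene, and 8 lie wholly inside it, so a window need not be the promoter in use. Windows of Egr2, a called transcription factor, of Tnf, the called cytokine, and of Acot4, the called fall, are shown 5′ to 3′. Those of Tnf and Acot4 lie outside the gene, and the last 24 bases of the Egr2 window lie inside it. Capitals mark matches on either strand to 7 motifs. A cyclic AMP response element (CRE) was searched as TGACGTCA and an AP-1 site as TGANTCA. The letters for the E-box were CACGTG, those for a promoter's TATA box were TATAAA, and an Egr site was GCGNGGGCG, while NF-kB and CArG motifs are given by name. They lie at chr10:67535249-67535498 (+ strand), chr17:35202008-35202257 (- strand) and chr12:84038129-84038378 (+ strand).
Egr2: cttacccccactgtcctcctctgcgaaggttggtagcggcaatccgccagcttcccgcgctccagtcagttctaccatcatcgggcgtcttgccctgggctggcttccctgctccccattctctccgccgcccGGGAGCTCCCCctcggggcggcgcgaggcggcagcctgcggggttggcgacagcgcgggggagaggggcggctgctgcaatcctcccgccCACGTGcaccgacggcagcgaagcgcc
Tnf: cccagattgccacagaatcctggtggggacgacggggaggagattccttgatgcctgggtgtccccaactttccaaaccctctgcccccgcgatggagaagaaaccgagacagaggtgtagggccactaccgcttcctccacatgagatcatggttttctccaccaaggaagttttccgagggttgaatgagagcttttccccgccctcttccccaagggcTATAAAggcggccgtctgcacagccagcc
Acot4: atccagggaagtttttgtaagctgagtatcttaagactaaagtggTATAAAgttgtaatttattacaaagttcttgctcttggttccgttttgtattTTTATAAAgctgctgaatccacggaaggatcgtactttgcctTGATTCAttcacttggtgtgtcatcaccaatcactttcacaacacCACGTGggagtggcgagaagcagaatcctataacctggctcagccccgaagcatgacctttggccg

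Among 26 windows of called higher genes, NF-kB matches were found in 3 (11.5%), those of Egr2, Fosl2 and Gfi1, against 8.26% of 8600 windows of tested genes. The Fosl2 window lies wholly and the Gfi1 window with 231 of its bases inside the gene. Egr matches were found in 4 (15.4% against 8.65%), TATA in 4 (15.4% against 6.22%), E-box in 2 (7.69% against 8.6%) and AP-1 in 2 (7.69% against 3.88%). CRE and CArG matches were in 0 of 26, against 2.88% and 1.02%. Unmarked above are GC box matches (GGGCGG, which can overlap Egr) in 50% against 59.3%, ETS matches (CCGGAAG) in 7.69% against 15.4% and CCAAT in 23.1% against 37.5%. For 112 windows of genes higher by at least 1 log2, CRE matches were in 7.14%, NF-kB in 8.93% and Egr in 12.5%. These are counts of letters in one window of each gene, with no test.

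Early transcription factors held the largest group of calls: 5 of 36 tested rose (Egr1, Egr2, Egr3, Hivep3 and Fosl2), none fell, and the median difference was 0.49. Egr1, a zinc finger factor induced by ERK signalling, read 8.30, 8.27 and 8.39 unstimulated and 9.96, 10.17 and 10.40 stimulated. All stimulated libraries were above all unstimulated ones by more than 1 log2. It rose by 1.86 ± 0.19 (SE; 3.62-fold, adjusted p = 0.000284). Egr3, its relative linked to restraint of T cell activation, read 6.62, 6.96 and 6.80 unstimulated and 8.47, 8.76 and 9.06 stimulated. The gap between the groups was again larger than the spread within either. Egr3 rose by 1.97 ± 0.20 (3.92-fold, adjusted p = 0.000284). Egr2, the third member induced by the receptor, read 6.97, 7.14 and 7.05 and then 8.15, 8.44 and 8.71. Its groups were likewise separate, with a rise of 1.38 ± 0.19 (2.6-fold, adjusted p = 0.00304).

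Hivep3, a large zinc finger protein that binds kB-like sites, read 6.95, 7.31 and 7.09 unstimulated and 8.39, 9.01 and 9.29 stimulated. Stimulated replicate 1 was the lowest of its group but above every unstimulated library. The rise was 1.78 ± 0.31 (adjusted p = 0.0219), and it was called in 1 of the 6 fits with a library left out. Fosl2, an AP-1 subunit, read 9.31, 9.23 and 8.93 and then 9.96, 9.93 and 9.74. The groups were separate, and it rose by 0.72 ± 0.13 (adjusted p = 0.0273). Gfi1, a transcriptional repressor of lymphoid and myeloid cells outside the early gene list, read 7.24, 7.30 and 7.42 and then 8.27, 8.46 and 8.80. It rose by 1.19 ± 0.21 (adjusted p = 0.0219).

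Several other early factors had separate groups but missed the threshold. Nfatc1, the NFAT member that receptor signals induce, read 9.53, 9.54 and 9.47 and then 10.10, 10.48 and 10.53 (difference 0.86 ± 0.17, adjusted p = 0.0501). Nab2, a co-repressor of Egr proteins, had a difference of 1.27 ± 0.27 (adjusted p = 0.06). The values for Irf4, a factor for T cell expansion, were 1.02 ± 0.22 (adjusted p = 0.0643), and for the nuclear receptor Nr4a3 0.88 ± 0.19 (adjusted p = 0.0643). Nr4a1 (Nur77), widely used as a reporter of receptor signals, read 8.94, 9.15 and 8.93 and then 10.21, 10.84 and 11.16. Its difference of 1.73 ± 0.42 was near that of Egr1, but its SE was larger (adjusted p = 0.113). Id3 (1.78 ± 0.48, adjusted p = 0.137) and Myc (0.66 ± 0.19, adjusted p = 0.164) were not called either. Fos overlapped between the groups at 7.59, 7.74 and 7.91 unstimulated and 7.82, 8.16 and 8.44 stimulated (adjusted p = 0.214), far under its fresh level of 11.02 to 11.36. Junb had a difference of 1.29 ± 0.66 (adjusted p = 0.23). Over the 36 factors, 23 had an unadjusted p under 0.05 in either direction, beside 23.1% of all tested genes.

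**Figure D3:**
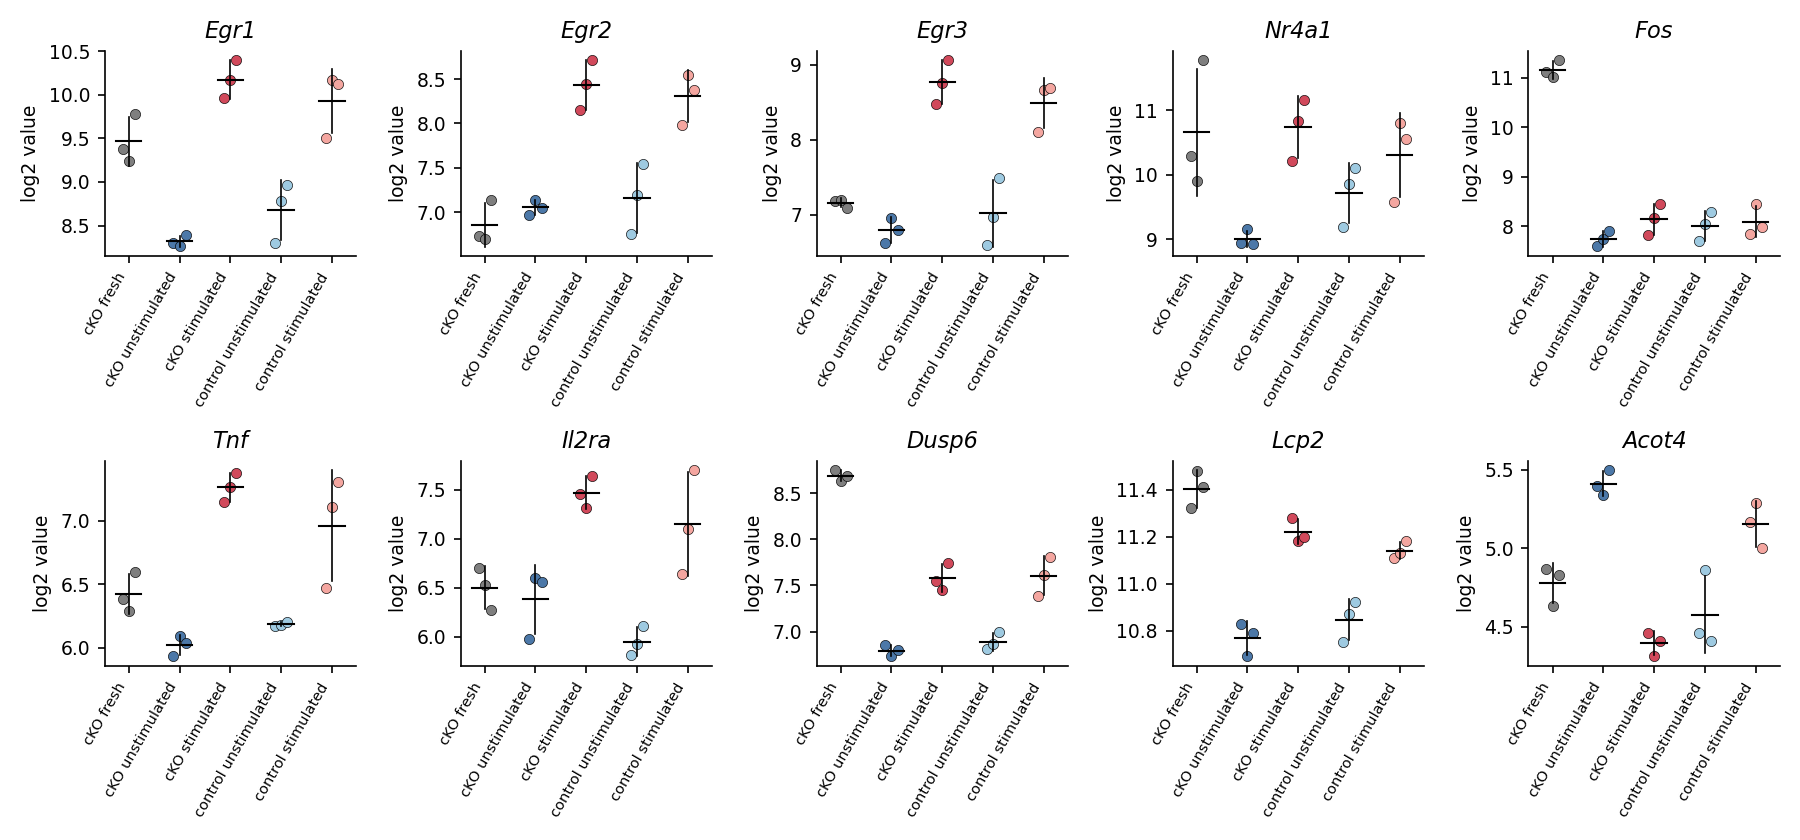
Log2 values of 10 genes in the cKO fresh, cKO unstimulated, cKO stimulated, control unstimulated and control stimulated libraries, with each library as a point, the mean as a bar and 1 SD as a line. Egr1, Egr2, Egr3 and Tnf have their highest means in stimulated cells, Fos and Dusp6 are highest in fresh cells, and Acot4 is higher in unstimulated than in stimulated cKO cells.

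Receptor-proximal genes gave 2 calls among 44 tested, Lcp2 and Sla, with a list median of 0.13. Lcp2 encodes SLP-76, the adaptor that assembles the signalling complex below Zap70. It read 10.83, 10.69 and 10.79 unstimulated and 11.28, 11.18 and 11.20 stimulated. The groups were separate and tight, and Lcp2 rose by 0.45 ± 0.07 (1.37-fold, adjusted p = 0.00388). Sla, the Src-like adaptor that promotes receptor turnover, read 10.43, 10.36 and 10.38 and then 10.99, 10.91 and 10.91. It rose by 0.55 ± 0.09 (adjusted p = 0.0087) and was called in 4 of the 6 fits with a library left out.

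The kinase Fyn had a difference of 0.43 ± 0.09 at the threshold (adjusted p = 0.0501). Ptpn6, the phosphatase SHP-1, had 0.74 ± 0.16 (adjusted p = 0.0643) and the adaptor Sh2d2a 0.87 ± 0.24 (adjusted p = 0.146). Zap70 read 8.89, 9.03 and 8.57 and then 9.57, 10.13 and 10.14. These groups were separate, but the difference of 1.12 ± 0.36 was not called (adjusted p = 0.182). Outside the list, Sh3bp2, an adaptor of antigen receptor signalling, read 7.15, 7.20 and 7.0 and then 8.41, 8.94 and 9.08. It rose by 1.69 ± 0.29 (3.24-fold, adjusted p = 0.017). Pitpnm2, of a family that transfers phosphatidylinositol between membranes, read 9.03, 9.24 and 8.98 and then 10.21, 10.66 and 10.83. It rose by 1.49 ± 0.26 (adjusted p = 0.0219). Sh3bp2 and Pitpnm2 were each called in 1 of the 6 fits with a library left out.

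Feedback inhibitors gave 2 calls among 34 tested, Dusp6 and Spred2, both of them inhibitors of the ERK pathway, and a median of 0.15. Differences of the 34 ran from -0.44 to 1.47, and 23 were positive, beside 51.4% of all tested genes. Dusp6, a phosphatase of ERK, read 6.85, 6.73 and 6.80 unstimulated and 7.55, 7.45 and 7.74 stimulated. The groups were separate, and both lay under the fresh libraries at 8.63 to 8.75. Dusp6 rose by 0.79 ± 0.11 (1.72-fold, adjusted p = 0.00278). Spred2, which blocks activation of Raf by Ras, read 7.99, 8.05 and 8.09 and then 8.68, 8.86 and 8.74. It rose by 0.72 ± 0.09 (adjusted p = 0.00162). The values for Dusp2, Dusp5 and Spry1, which also restrain these kinases, were 1.02 ± 0.27, 0.71 ± 0.16 and 1.13 ± 0.27 (adjusted p = 0.135, 0.0901 and 0.105). Rgs16, a regulator of G protein signalling, had 1.47 ± 0.30 (adjusted p = 0.0501). All 4 had separate groups. Ptpn7, a phosphatase of haematopoietic cells that acts on ERK, read 8.64, 8.57 and 8.58 and then 9.24, 9.40 and 9.40. It was outside the list and rose by 0.75 ± 0.15 (adjusted p = 0.0425).

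Of cytokines, 14 were tested and Tnf alone was called. Tnf read 5.93, 6.09 and 6.04 unstimulated and 7.15, 7.27 and 7.38 stimulated, against 6.38, 6.29 and 6.6 fresh. Every stimulated library was above every fresh and unstimulated one. Tnf rose by 1.25 ± 0.17 (2.37-fold, adjusted p = 0.0019). Il2, the growth factor made by activated T cells, did not reach the minimum for testing. It read 2.1, 1.97 and 1.96 unstimulated and 2.37, 2.56 and 2.46 stimulated, so its groups were separate at a very low level. Ifng read between -0.14 and -0.06 in all 6 libraries, and Ccl4 read 1.17 to 1.26 unstimulated and 1.65, 1.87 and 2.38 stimulated. At such levels the deposited values vary little between libraries, and differences may be understated.

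None of 23 cytokine receptors was called by limma, while 9 had an unadjusted p under 0.05, beside 23.1% of all tested genes. Il2ra, the high-affinity interleukin 2 receptor chain, read 5.98, 6.6 and 6.56 and then 7.46, 7.31 and 7.64. Unstimulated replicate 1 was the lowest, and the difference of 1.09 ± 0.23 fell just short of the threshold (adjusted p = 0.0525). Il7r, the interleukin 7 receptor of resting T cells, read 14.03, 14.01 and 14.12 and then 13.65, 13.39 and 13.41. Its difference was -0.57 ± 0.16 (adjusted p = 0.16), with separate groups. Il2rb had 0.57 ± 0.22 (adjusted p = 0.2).

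Among 36 tested co-stimulatory and inhibitory receptors Slamf1 alone rose, and the median was 0.32. Slamf1, a self-binding receptor of the SLAM family, read 7.38, 7.37 and 7.40 and then 7.99, 8.15 and 8.12. It rose by 0.70 ± 0.14 (adjusted p = 0.0416), but was called in none of the fits with a library left out. Tnfrsf9 (4-1BB), a co-stimulatory receptor of activated T cells, read 5.96, 5.92 and 5.57 and then 7.08, 7.25 and 7.55. These groups did not overlap, and the difference was 1.48 ± 0.30 (adjusted p = 0.0505).

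The inhibitory receptor Pdcd1 (PD-1) had a difference of 1.33 ± 0.29 (adjusted p = 0.0782) and Cd5, which dampens receptor signals, 1.01 ± 0.24 (adjusted p = 0.0979). Icos had 0.52 ± 0.13 (adjusted p = 0.116) and Cd274 (PD-L1) 0.49 ± 0.14 (adjusted p = 0.161). Cd69, the standard early activation marker, read 9.50, 9.64 and 9.70 unstimulated and 9.98, 9.87 and 10.07 stimulated. Its groups were separate by a small margin (0.36 ± 0.12, adjusted p = 0.192), and fresh cells were higher at 11.23 to 11.59. Of the 36 receptors, 19 had all stimulated libraries above all unstimulated ones, beside 23.9% of all tested genes.

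Other called surface and secretory genes had low levels and fell outside the level rule for named genes, so they were chosen after their values were seen. Sema7a, a membrane-anchored semaphorin, read 2.87, 3.26 and 3.24 unstimulated and 4.90, 5.46 and 5.77 stimulated. Its rise of 2.25 ± 0.30 (4.76-fold, adjusted p = 0.0019) was the largest among the called genes. All unstimulated cKO libraries of Sema7a lay below the minimum linear value of 10. It thus entered the test through other libraries, the stimulated ones among them, and its fold rests on a low baseline. At a minimum of 50 it was not tested. Ccr4, a chemokine receptor of helper and skin-homing T cells, read 4.30, 4.91 and 4.50 and then 6.20, 6.03 and 6.64. Its groups did not overlap, and it rose by 1.72 ± 0.27 (adjusted p = 0.0087). Chst2, a sulfotransferase, rose by 1.33 ± 0.18 (adjusted p = 0.0019), from 3.51 to 3.56 up to 4.59, 4.88 and 5.14. Tnfrsf19, a receptor of the TNF receptor family, rose by 1.18 ± 0.14 (adjusted p = 0.00162).

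For NF-kB subunits, inhibitors and regulators, 1 of 32 tested rose. Tnip2, which binds A20 and restrains NF-kB, read 7.38, 7.30 and 7.57 and then 7.83, 8.07 and 8.02. It rose by 0.56 ± 0.11 (adjusted p = 0.0465) and was called in 1 of the 6 fits with a library left out. Nfkbid had a difference of 0.97 ± 0.24 (adjusted p = 0.115), Rela 0.72 ± 0.29 (adjusted p = 0.201) and Nfkb1 0.32 ± 0.11 (adjusted p = 0.194). The value for Birc3 was -0.35 ± 0.09 (adjusted p = 0.117). In the Bcl2 family and death receptors, 1 of 30 rose: Bcl2a1b, an anti-apoptotic NF-kB target, by 0.85 ± 0.15 (adjusted p = 0.0246). It read 6.39, 6.61 and 6.64 and then 7.35, 7.26 and 7.58, but its near-identical copies can share reads, so its value is uncertain. Of pro-apoptotic members, Bcl2l11 (Bim) had 0.33 ± 0.08 (adjusted p = 0.116) and Bbc3 (Puma) 1.44 ± 0.47 (adjusted p = 0.189). By limma, none of 31 genes of calcium entry, calcineurin and NFAT was called. An unadjusted p under 0.05 was seen for 8 of the 31, beside 23.1% of all tested genes. Orai1, the calcium channel subunit, had 1.26 ± 0.41 (adjusted p = 0.189) and Nfatc3 -0.40 ± 0.10 (adjusted p = 0.116).

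Growth and metabolism genes gave few calls. Of 36 cholesterol and fatty acid synthesis genes, Cyp51, which demethylates lanosterol, rose: it read 8.41, 8.32 and 8.51 and then 8.87, 8.86 and 8.94. The rise was 0.48 ± 0.09 (adjusted p = 0.0246). The values for Hsd17b7 and Sqle, enzymes of the same pathway, were 0.55 ± 0.13 and 0.32 ± 0.09 (adjusted p = 0.0862 and 0.142). Pprc1, a growth-induced coactivator of nuclear genes for mitochondria, read 8.80, 9.04 and 8.80 and then 9.28, 9.42 and 9.53. It was in no list and rose by 0.53 ± 0.10 (adjusted p = 0.0273), but was not called once GC content was removed by a spline (0.19, adjusted p = 0.395). Mettl1, a tRNA methyltransferase, was also in no list and rose by 0.91 ± 0.17 (adjusted p = 0.0352), from 5.82, 5.83 and 5.56 to 6.45, 6.74 and 6.77.

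No ribosome biogenesis gene of 87 was called by limma, and the median was 0.19. A positive difference was seen for 69, beside 51.4% of all tested genes, and an unadjusted p under 0.05 for 41, beside 23.1%. Nolc1, a nucleolar phosphoprotein, read 8.93, 8.86 and 8.79 and then 9.34, 9.57 and 9.67 (0.67 ± 0.17, adjusted p = 0.115). The values for Grwd1 and Ppan, both ribosome assembly factors, were 1.04 ± 0.26 and 1.22 ± 0.42 (adjusted p = 0.115 and 0.192). Of 39 genes of amino acid transport, one-carbon and polyamine metabolism, 0 were called by limma. An unadjusted p under 0.05 was seen for 15 of the 39, beside 23.1% of all tested genes. Among them, Slc7a5 had 0.83 ± 0.24 (adjusted p = 0.163), Slc1a5 0.62 ± 0.17 (adjusted p = 0.146) and Srm 1.10 ± 0.35 (adjusted p = 0.179). Among 31 glycolysis genes 0 were called and 9 had an unadjusted p under 0.05, beside 23.1% of all tested genes. Aldoa had 0.73 ± 0.27 (adjusted p = 0.194) and Ldha 0.40 ± 0.12 (adjusted p = 0.174).

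The 81 cytosolic ribosomal protein genes ranged from -0.34 to 2.25 with a median of 0.22. By limma 0 were called and 31 had an unadjusted p under 0.05, beside 23.1% of all tested genes. Rpl11 read 9.62, 9.98 and 9.61 unstimulated and 10.40, 11.43 and 11.66 stimulated, a difference of 1.43 ± 0.50 (adjusted p = 0.192). The share of the linear total in ribosomal protein genes was 5.83 ± 0.31% unstimulated and 6.79 ± 0.48% stimulated (SD, n = 3 each; exact permutation p = 0.1, the smallest this design allows). The 13 mitochondrially encoded genes all had negative differences, with a median of -0.30. Of these, 12 had stimulated libraries all below the unstimulated ones, beside 18.4% of all tested genes, but 0 had an unadjusted p under 0.05. For mt-Co1 the difference was -0.34 ± 0.18 (adjusted p = 0.239). Of 47 cell cycle entry genes and 21 mitosis genes, 0 were called by limma, and medians were -0.06 and -0.08. An unadjusted p under 0.05 was seen for 10 and 2 of them, beside 23.1% of all tested genes. Differences were positive for 20 of the 47 cell cycle entry genes, beside 51.4% of all tested genes, among them Ccnd3 (0.32, adjusted p = 0.177).

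The remaining called genes had varied roles, from the cytoskeleton to secretion. Tuba1c, an alpha-tubulin and the 1 called gene of 32 in the cytoskeleton list, read 7.69, 7.56 and 7.45 and then 8.43, 8.50 and 8.59, and rose by 0.94 ± 0.17 (adjusted p = 0.0246). Srgn, the proteoglycan of secretory granules, read 10.48, 10.53 and 10.45 and then 11.03, 11.32 and 11.31. It rose by 0.73 ± 0.13 (adjusted p = 0.0219). Ephx1, an epoxide hydrolase, rose by 0.93 ± 0.15 (adjusted p = 0.0128), from 9.48 to 9.54 up to 10.34, 10.44 and 10.55. Rises were also called for Tacc2 (1.01 ± 0.20, adjusted p = 0.0429), Sytl2, a Rab27 effector (0.76 ± 0.14, adjusted p = 0.0267), and Snn (0.58 ± 0.11, adjusted p = 0.0429). In these 3 genes the groups were separate.

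Acot4, a peroxisomal acyl-CoA thioesterase, was the only gene called lower and was also chosen after its values were seen. It read 5.40, 5.34 and 5.50 unstimulated and 4.46, 4.31 and 4.41 stimulated, while fresh cKO cells read 4.87, 4.63 and 4.83. Unstimulated libraries were thus the highest and stimulated ones the lowest. It fell by 1.02 ± 0.13 on the log2 scale (2.03-fold, adjusted p = 0.00185).

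Genes of the naive state gave no call (limma, 0 of 49 tested), and 24 of the 49 differences were positive. An unadjusted p under 0.05 was seen for 18, beside 23.1% of all tested genes. Klf3, a factor of quiescent lymphocytes, read 11.49, 11.50 and 11.42 and then 11.26, 11.19 and 10.82. Its groups were separate, at a difference of -0.38 ± 0.11 (adjusted p = 0.146), and Txnip had -0.20 ± 0.08 (adjusted p = 0.201). Of 44 interferon-stimulated genes 0 were called by limma and 11 had an unadjusted p under 0.05, beside 23.1% of all tested genes. Differences were positive for 14, and the median was -0.12. Gbp4, a guanylate-binding protein, read 11.03, 11.03 and 11.04 and then 10.74, 10.72 and 10.67 (-0.33 ± 0.07, adjusted p = 0.068). Rragd, a GTPase of nutrient sensing, had -0.75 ± 0.18 (adjusted p = 0.113).

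Of 13 regulatory T cell markers 12 reached the minimum and 0 were called by limma. Of the 12, 6 had an unadjusted p under 0.05, beside 23.1% of all tested genes. The summed linear level of the regulatory T cell markers was 1412 to 1475 unstimulated and 1905 to 2322 stimulated. The sort had excluded CD25+ cells, and the defining factor Foxp3 had means of 5.83 and 5.91. This list holds Il2ra and Tnfrsf9, which activated conventional T cells also express, with means of 6.38 and 5.82 unstimulated and 7.47 and 7.29 stimulated. Means also rose for Izumo1r (7.07 to 8.21), Tnfrsf18 (7.54 to 8.36), Capg (7.38 to 8.2) and Gpr83 (5.12 to 5.94). Differences were positive for 10 of the 12, beside 51.4% of all tested genes, and Ikzf2 and Ikzf4 were lower. What the rise of the sum reflects was not tested. Memory and effector markers (14 of 22 at the minimum) summed to 10520 to 11280 unstimulated and 8372 to 9123 stimulated. This sum is weighted to Itga4, the highest of them, with mean log2 levels of 12.7 unstimulated and 12.22 stimulated. Of the 14 tested, 0 were called by limma and 5 had a positive difference, among them Il2rb and Crip1. In bulk RNA, fewer cells of a type and less RNA per cell cannot be told apart, and the part of these markers in the results was not tested.

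**Figure D4:**
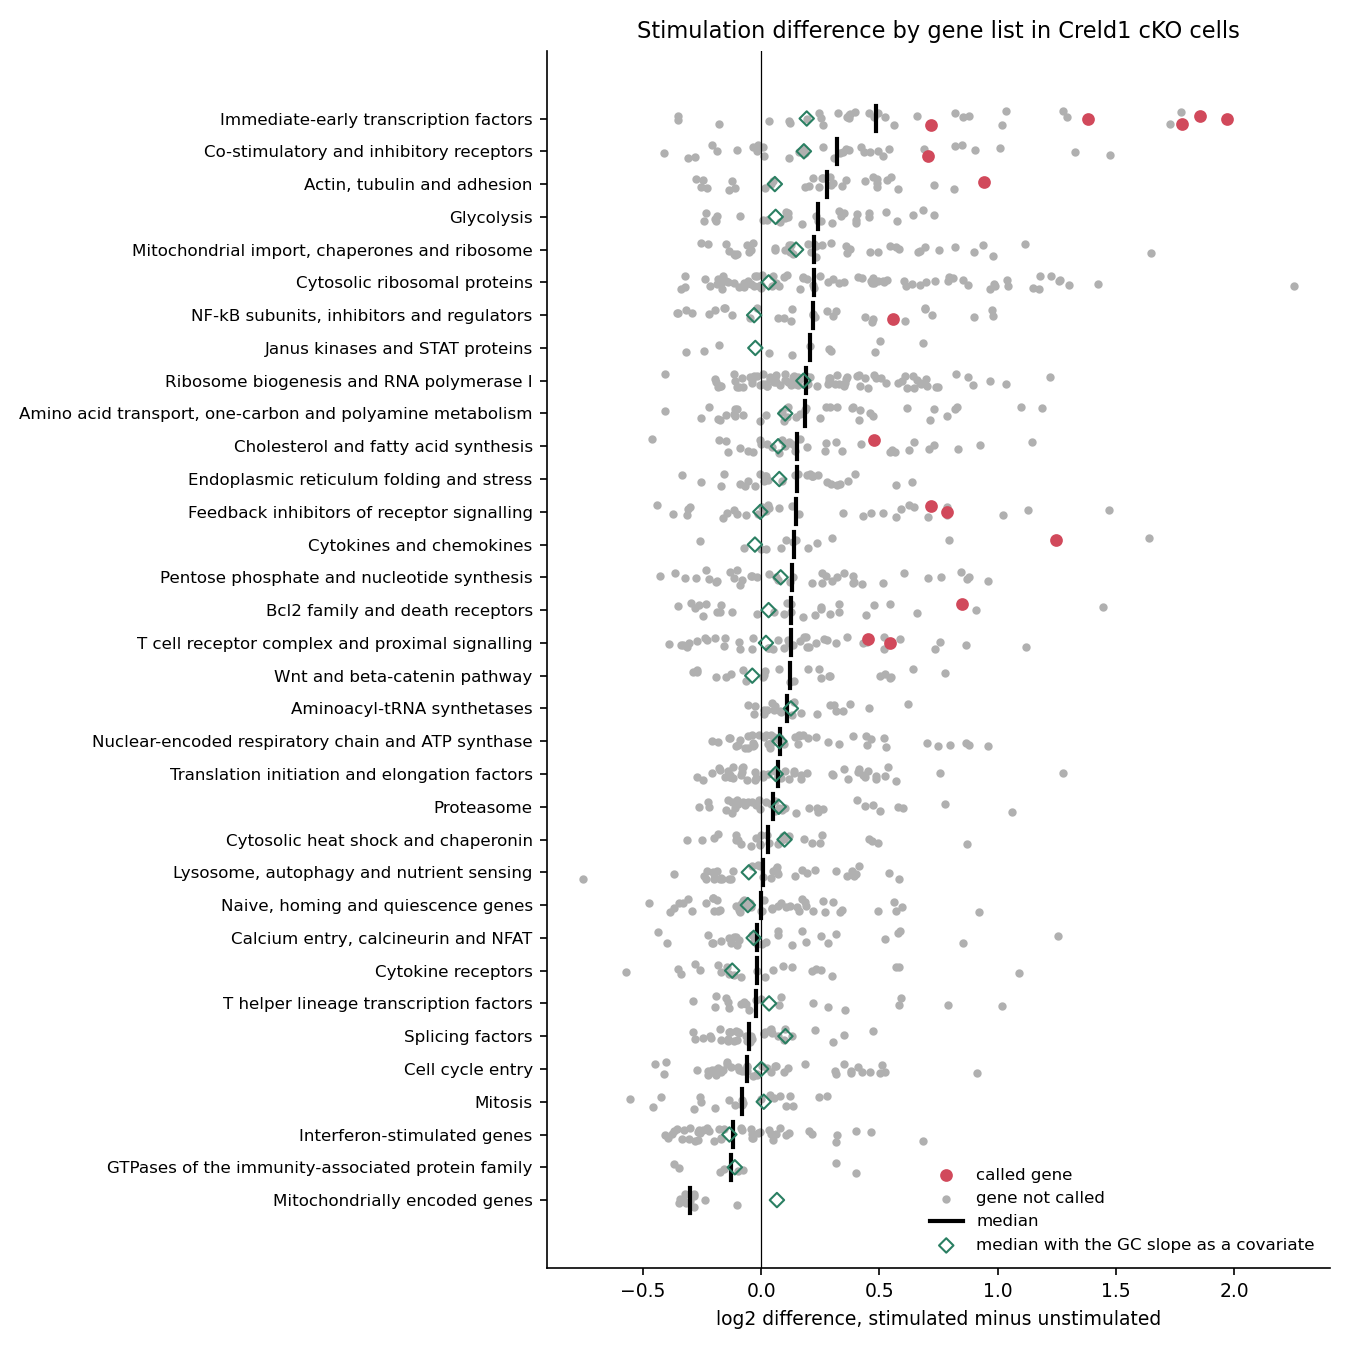
Each point is a gene, placed by its log2 stimulation difference in cKO cells, in rows by gene list ordered by their median (black bar). Red points are called genes, and open diamonds give the list's median with the GC slope as a covariate. Marker lists of cell types are not drawn. Of the 34 lists drawn, early transcription factors have the highest median (0.49) and most called genes (5), and mitochondrially encoded genes have the lowest median (-0.30).

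Differences followed the GC content of transcripts. Over 10 equal parts of the genes ordered by GC content, the median difference rose from -0.21 at a median of 39.2% GC to 0.52 at 59.0% GC. Each library's slope of level on GC content was -0.13 ± 0.06 unstimulated and 0.09 ± 0.10 stimulated (SD, n = 3 each; exact permutation p = 0.1, the smallest possible). Called higher genes had a median GC content of 51.5%, beside 49.2% of all tested genes and 54.9% of the genes higher at an unadjusted p under 0.05. With the slope as a covariate, the median of the called higher genes moved from 0.92 to 0.73 and that of the genes higher at an unadjusted p under 0.05 from 0.54 to 0.15. Early transcription factors then had a median of 0.19, ribosome biogenesis genes 0.18, ribosomal proteins 0.03, glycolysis 0.06 and mitochondrially encoded genes 0.07.

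With that covariate 72 genes were called, 63 higher and 9 lower, and of the 31 only Tnip2 lost its call (adjusted p = 0.0519). Nfatc1 (0.53, adjusted p = 0.00399), Nab2 (0.73, adjusted p = 0.000733), Nr4a1 (0.86, adjusted p = 0.00156), Cd5 (0.53, adjusted p = 0.00399) and Icos (0.70, adjusted p = 0.00152) passed the threshold there. With GC content removed by a spline from each library, 184 genes were called, 139 higher and 45 lower. They held 13 of 36 early transcription factors, 10 of 44 receptor-proximal genes and 9 of 36 co-stimulatory and inhibitory receptors, all higher. Of 34 feedback inhibitors, 6 were called higher and 3 lower (Dusp7, Pim1 and Pim2). Ribosome biogenesis genes gave 7 of 87, beside 139 higher of all 10877 tested genes. Of the 31 calls 29 were kept, while Pprc1 (0.19, adjusted p = 0.395) and Tnip2 (0.30, adjusted p = 0.155) were not called. Genes called with the spline included Irf4 (1.06, adjusted p = 0.0256), Il2ra (1.20, adjusted p = 0.0122), Tnfrsf9 (1.51, adjusted p = 0.0187), Cd69 (0.58, adjusted p = 0.0298) and, lower, Il7r (-0.40, adjusted p = 0.0347).

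The spread in the test came from all 18 libraries, including fresh ones, of which cKO replicate 3 had the lowest median correlation with its group (0.9687). Without that library 336 genes were called in the same contrast (262 higher, 74 lower), and in a fit of the 12 cultured libraries 882 were (697 higher, 185 lower). All of the 31 were among both. In the 12 cultured libraries 697 of all 10877 tested genes were called higher. Among them were 14 of 36 early transcription factors, 13 of 36 co-stimulatory and inhibitory receptors, 11 of 44 receptor-proximal genes and 10 of 34 feedback inhibitors. So were 21 of 87 ribosome biogenesis genes and 14 of 81 ribosomal protein genes. Feedback inhibitors also had 3 genes called lower (Zfp36l2, Pde3b and Peli1), among 185 of all tested genes. Early transcription factors had 1 called lower (Klf10), as did co-stimulatory and inhibitory receptors (Cd48) and receptor-proximal genes (Sos1). In other lists, such as mitosis, splicing factors, the Wnt pathway and mitochondrially encoded genes, 0 were called higher there. When the GC slope was added to that fit, Egr1 and Egr3 alone were called (2 genes), and all of the 31 kept their direction.

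In control cells the same comparison called 38 genes (0.349%), 34 higher and 4 lower, in libraries separate from the cKO ones. Of the 31 cKO calls, 30 had the same sign in control cells and 12 were called there, which is 38.7% of the cKO and 31.6% of the control calls. Control differences were 1.46 for Egr3 (adjusted p = 0.00527), 1.25 for Egr1 (adjusted p = 0.00803), 1.14 for Egr2 (adjusted p = 0.0188), 0.71 for Dusp6 (adjusted p = 0.00803) and 0.80 for Sla (adjusted p = 0.000861). The difference was larger in cKO than in control cells for 27 of the 30 higher genes. These were chosen by their cKO difference, which favours larger values there, so the count does not compare the genotypes. For none of these 30 was the difference between genotypes called (limma interaction, smallest adjusted p = 0.166). These interaction values ran from -0.26 for Sla to 1.20 for Sema7a. Of the 31 called genes, 6 had an unadjusted interaction p under 0.05, a smaller share than the 3049 of all 10877 tested genes.

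The interaction was called for 1 gene of all tested (0.00919%), Acot4, with 3049 genes at an unadjusted p under 0.05. Acot4 was 0.58 ± 0.13 higher on stimulation in control cells (adjusted p = 0.0869) and fell in cKO cells, an interaction of -1.60 ± 0.19 (adjusted p = 0.00247). It was not called with a block on runs of library numbers plus the GC slope, nor in the 12 cultured libraries with the GC slope. At a minimum of 50 it was not tested. Other fits called many interactions, 2373 in the 12 cultured libraries and 1657 without fresh cKO replicate 3. Over all tested genes, the differences in the 2 genotypes had a Pearson correlation of -0.46, and of -0.08 after GC content was removed by a spline. This is a description across genes, which are not independent, and the medians by GC content ran in opposite directions in the 2 genotypes.

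**Figure D5:**
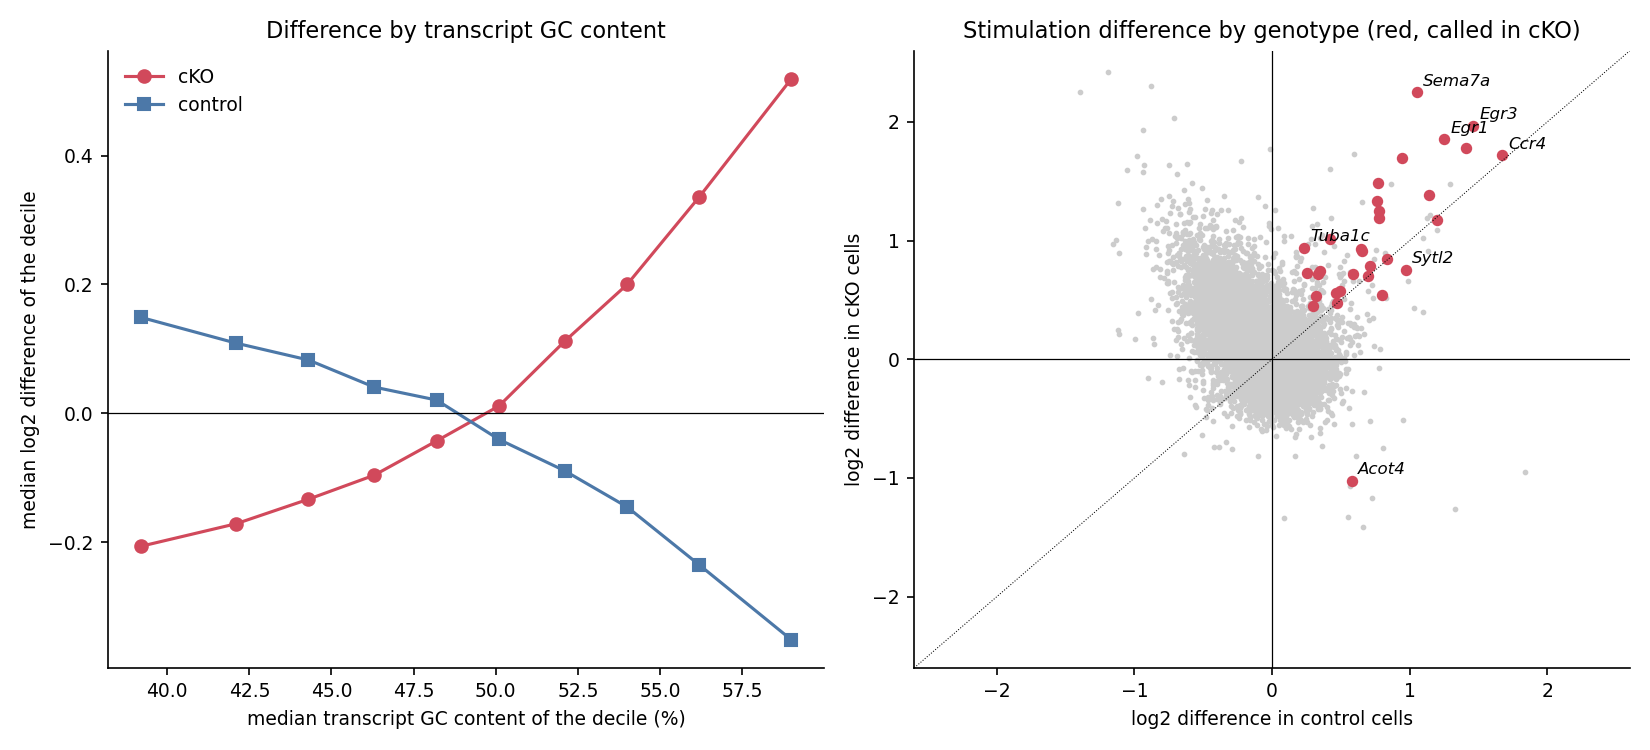
Left, median log2 stimulation difference of 10 equal parts of the genes ordered by transcript GC content (x axis, %), for cKO (red) and control (blue) cells, rising from -0.21 to 0.52 in cKO and falling from 0.15 to -0.35 in control cells. Right, each gene's log2 stimulation difference in control (x axis) and cKO cells (y axis), with the 31 called genes in red, 30 of them higher in both, and the dotted line marking equal values.

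Relative to fresh cKO cells, the called genes followed several courses. Higher genes were chosen for stimulated values above unstimulated ones, which favours stimulated libraries above fresh ones. The share over all tested genes was not counted. In 23 of the 30 higher genes all stimulated libraries lay above all fresh ones, among them Egr1, Egr2, Egr3 and Tnf. In 4 (Dusp6, Sytl2, Ptpn7 and Lcp2) they all lay below, with the unstimulated libraries lower still. In the remaining 3 (Fosl2, Mettl1 and Pprc1) they overlapped. Fresh libraries of Snn and Ccr4 read 7.22 to 7.36 and 3.89 to 4.19, below all cultured cKO libraries of either kind.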

How the data were processed

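The deposited table holds 1 value per gene and library, placed by the authors on a log2 scale and normalized between libraries, which can shrink differences of low genes. Per the submitters' processing notes, CASAVA 1.8, HISAT2 2.1.0, SAMtools 1.4, Partek 6.6, DESeq2 and mm10 were used, with their order and the annotation not given in the sources used here. A model of 6 group means was fitted to all 18 libraries with limma 3.58.1 (R 4.3.3), with trended moderation and Benjamini-Hochberg adjustment over all tested genes, at two-sided adjusted p under 0.05. Residual degrees of freedom were 12 (15.7 with the prior), and no pseudocount was added. GC content came from GENCODE M21 transcripts of GRCm38 (99.3% of tested genes). Genes and lists were chosen with earlier results of these data known. Named were Creld1, called genes with separate groups and a mean of at least 100 (linear) in the higher one, and key or smallest-p members of each list. The values of some single genes are left out. No pair of libraries was identical (0 pairs). Alternatives covered filter, pseudocount, scaling, libraries fitted, trend, weights, block, GC content and left-out libraries. The 12-library fits and the fit without 1 fresh library were chosen after seeing the data.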

Additional observations from a re-analysis of the deposited data

Results flagged for a closer look

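In the main analysis the response of Acot4 differed between genotypes: the interaction of stimulation and genotype was -1.60 on the log2 scale (limma, adjusted p = 0.00247). Its call was lost with block and GC slope and in the 12 cultured libraries with the GC slope. Means were 5.41 unstimulated and 4.39 stimulated in cKO cells and 4.58 and 5.16 in control cells.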

How the results depend on the processing

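In cKO cells, the count of 31 called genes stayed between 28 and 31 with no filter, a minimum of 50, pseudocounts of 5 or 0.5, trimmed-mean centring, quantile normalization or no trend. Of the 31, 29 were kept with no filter (not Snn or Tnip2), 27 with trimmed-mean centring (not Slamf1, Snn, Sytl2 or Tnip2), 25 with quantile normalization (not these 4, Bcl2a1b at adjusted p = 0.0938 or Cyp51 at 0.0746) and 30 with no trend (not Ptpn7). It was 2349 in a fit of only the groups compared, 6169 with library weights (whose estimation did not converge), 72 with the GC slope, 184 with a GC spline, 153 with a replicate block on runs of library numbers, 139 with block and GC slope, and 11 to 34 with 1 cultured cKO library left out. Numbers were not taken to pair the samples, since not every same-run correlation of deviations was over 0.1: stimulated against unstimulated, these were 0.121, 0.32 and -0.159 in cKO and 0.529, 0.134 and 0.04 in control cells, and 0.65, 0.437 and 0.041 between genotypes in stimulated cells. Chosen after seeing the data, the 12 cultured libraries gave 882, these with the GC slope 2, and leaving out fresh cKO replicate 3 gave 336. Control counts, 38 in the main analysis, were 61 with quantile normalization, 7 with only the groups compared, 6301 with weights, 321 with the GC slope, 131 with the spline, 41 with the block, 240 with block and GC slope, 4 to 78 with 1 cultured control library left out, 151 and 365 for the 12 libraries without and with the GC slope, and 124 without fresh cKO replicate 3. Interaction counts, 1 in the main analysis, were 3 with no filter, 0 at a minimum of 50, 2373 with only the groups compared, 7103 with weights, 0 with block and GC slope, 2373 and 0 for the 12 libraries without and with the GC slope, 1657 without fresh cKO replicate 3, and 1 with any 1 cultured library left out. All of the 31 called genes kept their direction wherever they were tested.

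Among the genes named in the text, signs turned for 5, all uncalled. Creld1 was -0.0555 with the GC slope, -0.11 with the spline, -0.0874 with block and GC slope and -0.26 in the 12 libraries with GC slope. Junb was -0.0575 with the GC slope and -0.11 in the 12 libraries with it, where Fos was -0.10. mt-Co1 was 0.0014 with the GC slope and 0.0252 with block and GC slope, and Ccnd3 was -0.0641 with the spline. The causes were not tested. Depth is unknown, so counting error could not be set beside any value.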
